A study of Mus musculus with 4 samples.

Results

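The 8 listed genes of the S100 family were followed through CD11b+ splenocytes of C57BL/6 mice profiled by CITE-seq, which reads the RNA of a droplet together with antibodies that carry DNA tags. The members were chosen by name as S100a8, S100a9, S100a6, S100a11, S100a4, S100a10, S100a1 and S100a13, and all 8 were found among the 27998 genes of the deposited table. Mice were 8 to 12 weeks old. There was 1 RNA library that came from untreated mice (steady state) and 1 from mice given 3 once-daily subcutaneous injections of 10 µg GM-CSF, with cells taken 24 h after the last. Each library was aimed at 7000 sorted CD11b+ cells, and nothing in the sources used here says how many mice were pooled. With 1 library per condition no difference has a replicate check, no test was made, and GM-CSF cannot be told apart from the library. Levels count unique molecular identifiers (UMIs, each 1 captured molecule) of a gene in a group of cells, scaled to 1000000 UMIs of that group (CPM, the unit of every level given without one), and the brackets beside them hold exact Poisson 95% intervals, which cover counting error only. Cell types are the deposited labels. They were built by clustering the same RNA, so a level by cell type is a description.

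S100 proteins are small calcium-binding proteins of the EF-hand type that mostly work as dimers and bind partner proteins when calcium rises. S100a8 and S100a9 form calprotectin, which is stored at very high levels in the cytosol of neutrophils, sequesters zinc and manganese from microbes, and acts outside the cell on Tlr4 and Ager, the receptor for advanced glycation end products. S100a10 forms a complex with annexin A2 at the plasma membrane, S100a11 binds annexin A1, S100a6 (calcyclin) binds annexins and Cacybp, and S100a4 binds the heavy chain of non-muscle myosin, Myh9. S100a13 is known for the release of secreted proteins that lack a signal peptide, and S100a1 for calcium handling in muscle.

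All 8 members lie on mouse chromosome 3 (GRCm38, the build of the deposited counts, with GENCODE gene models). S100a1 (chr3:90511034-90514392, minus strand) and S100a13 (chr3:90514435-90524581, plus strand) stand head to head, 42 bases apart. They are followed by S100a4 (chr3:90603771-90606045, plus), S100a6 (chr3:90612882-90624181, plus), S100a8 (chr3:90668978-90670035, plus) and S100a9 (chr3:90692632-90695721, minus). S100a8 and S100a9 lie on opposite strands with 22596 bases between them. S100a11 (chr3:93520488-93526287, plus) and S100a10 (chr3:93555080-93564643, plus) form a second group, 2824766 bases further on. S100a11 also has an annotated processed pseudogene, and how reads that match both were counted is not given in the sources used here.

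The promoter table of RefSeq (GRCm38.p6) held 7 of the 8 members, and not S100a10. The 250 bases before the RefSeq start are shown for S100a8 and S100a9, whose levels followed each other most closely, and for S100a4, which was nearly absent where those are highest. They cover chr3:90668821-90669070 (plus strand), chr3:90695722-90695971 (minus strand) and chr3:90603520-90603769 (plus strand), each written 5′ to 3′ on the strand of its gene. Capitals mark matches to the letters of the core promoter box TATAAA (gene strand only), the C/EBP type TTGCNNAA (both strands) or the PU.1 type GAGGAAG (both strands), and no 2 matches overlapped here.
S100a8: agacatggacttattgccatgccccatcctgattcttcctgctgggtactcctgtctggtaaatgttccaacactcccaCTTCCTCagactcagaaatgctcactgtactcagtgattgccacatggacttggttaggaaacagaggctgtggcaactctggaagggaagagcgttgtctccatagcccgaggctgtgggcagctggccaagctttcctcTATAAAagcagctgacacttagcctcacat
S100a9: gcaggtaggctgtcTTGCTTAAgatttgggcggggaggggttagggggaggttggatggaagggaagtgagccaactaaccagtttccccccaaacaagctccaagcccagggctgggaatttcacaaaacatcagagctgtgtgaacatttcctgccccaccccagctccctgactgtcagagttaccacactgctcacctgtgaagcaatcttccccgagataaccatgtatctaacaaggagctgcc
S100a4: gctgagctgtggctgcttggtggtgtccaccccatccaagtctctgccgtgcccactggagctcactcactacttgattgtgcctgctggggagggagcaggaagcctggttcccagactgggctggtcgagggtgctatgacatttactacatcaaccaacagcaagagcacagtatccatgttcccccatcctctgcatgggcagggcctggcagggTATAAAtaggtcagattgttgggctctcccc
The last sequence is the 104 bases between the RefSeq starts of S100a1 and S100a13 (chr3:90514331-90514434, plus strand), shown because both genes share it, read in opposite directions, and it held no match.
S100a1 to S100a13: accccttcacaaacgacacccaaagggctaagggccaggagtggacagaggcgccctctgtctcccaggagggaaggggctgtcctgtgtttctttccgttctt

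TATAAA began 30 bases before the start of S100a8 and 31 bases before that of S100a4. Of all 32851 promoter windows of this length, 7.59% held it. S100a8 also held the complement of GAGGAAG, beginning 171 bases before the start, as 10.6% of windows did on either strand. S100a9 held TTGCNNAA 236 bases before its start, as 9.56% of windows did. The windows of S100a6, S100a11, S100a1 and S100a13 held none of these letters. A match is a string of letters and not a shown binding site.

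The libraries held 4827 cells and 22358903 UMIs in steady state and 6804 cells and 35007567 UMIs after GM-CSF, and shared 8 cell barcodes. Median depth ran from 1229 UMIs in GM-CSF-treated granulocytes to 9709 in MoMacDC_c4 of the same library. Marker lists were highest where the labels place them for B cells, T cells, macrophages, activated DCs and progenitor DCs. The list of mature neutrophil genes was highest in the cells labelled granulocytes and the list of granule genes in those labelled neutrophils, in both libraries. The cells labelled cDC2-A went against their name, with the NK cell list (Ncr1, Klrb1c, Gzma, Nkg7) at 17647 and 18636 CPM and the cDC2 list (Clec4a4, Esam, Dtx1, Cd4) at 19.8 and 15.9. They are treated here as cells with NK genes. Steady-state MoMacDC_c4 also carried the NK cell list, at 11074 CPM beside 0.349 with GM-CSF, where Ncr1 and Nkg7 were at 0. In it 27 of 43 steady-state cells held 10 or more UMIs of the 4 genes, 0 of them called doublets, and none of 595 GM-CSF-treated cells did. The MoMacDC_c4 levels of S100a4, S100a6, S100a10 and S100a13 below are also given for the steady-state cells under that limit, written as cells without NK genes, a limit chosen after the values were seen. MoMacDC_c1, c2, c4 and c5 and progenitor DCs make up the bundle of monocytes, macrophages and DCs that the study clustered again.

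S100a8 and S100a9 were the most abundant members by far and were concentrated in granulocytes and neutrophils. The 8 members together took 3.53% of all UMIs in steady state and 4.13% after GM-CSF. S100a8 and S100a9 alone made up 3 and 3.55%, and 92.3 and 94.3% of their UMIs lay in granulocytes and neutrophils. In neutrophils S100a8 stood at 123538 CPM (122880 to 124199) in steady state and 90399.7 CPM (90135 to 90665) with GM-CSF, and S100a9 at 130189 CPM (129513 to 130867) in steady state and 103888 CPM (103604 to 104173) with GM-CSF. Both genes together were 25.4 and 19.4% of all UMIs of neutrophils. In granulocytes S100a8 stood at 42188 CPM (41979 to 42399) in steady state and 36641 CPM (36400.1 to 36884) with GM-CSF, and S100a9 at 50839 CPM (50609 to 51070.2) in steady state and 51099 CPM (50814 to 51385) with GM-CSF. None of these 4 differences between the libraries reached 2-fold. The ratio of the GM-CSF-treated to the steady-state level was 0.732 (0.727 to 0.736) for S100a8 and 0.798 (0.793 to 0.803) for S100a9 in neutrophils, and 0.869 (0.861 to 0.876) and 1.01 (0.998 to 1.01) in granulocytes.

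The spread between cells of 1 type was wide in granulocytes. A median steady-state granulocyte held 162 UMIs of S100a8 and S100a9 together, with 28 at the 10th percentile of cells and 336 at the 90th percentile. After GM-CSF the median was 74, with 4 and 294 at those limits, in cells whose median depth was 1229 UMIs instead of 1770. Granulocytes with under 10 of these UMIs numbered 83 of 1929 in steady state and 279 of 1791 after GM-CSF. Neutrophils held a median of 1713 in steady state and 917 after GM-CSF, and none of them had fewer than 10. As a share of each cell's own UMIs the medians were 8.72 and 6.54% in granulocytes and 26.6 and 20% in neutrophils.

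S100a9 UMIs outnumbered S100a8 UMIs in both types. The kit counts molecules at their 3′ ends, so no gene length enters this ratio, although capture can differ between genes. There were 0.83 (0.824 to 0.835) S100a8 UMIs per S100a9 UMI in steady-state granulocytes and 0.717 (0.711 to 0.723) after GM-CSF. Neutrophils had 0.949 (0.942 to 0.956) and 0.87 (0.867 to 0.874). The ratio was lower in the GM-CSF-treated library in both types and lower in granulocytes than in neutrophils in both libraries, by more than counting error.

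**Figure D1:**
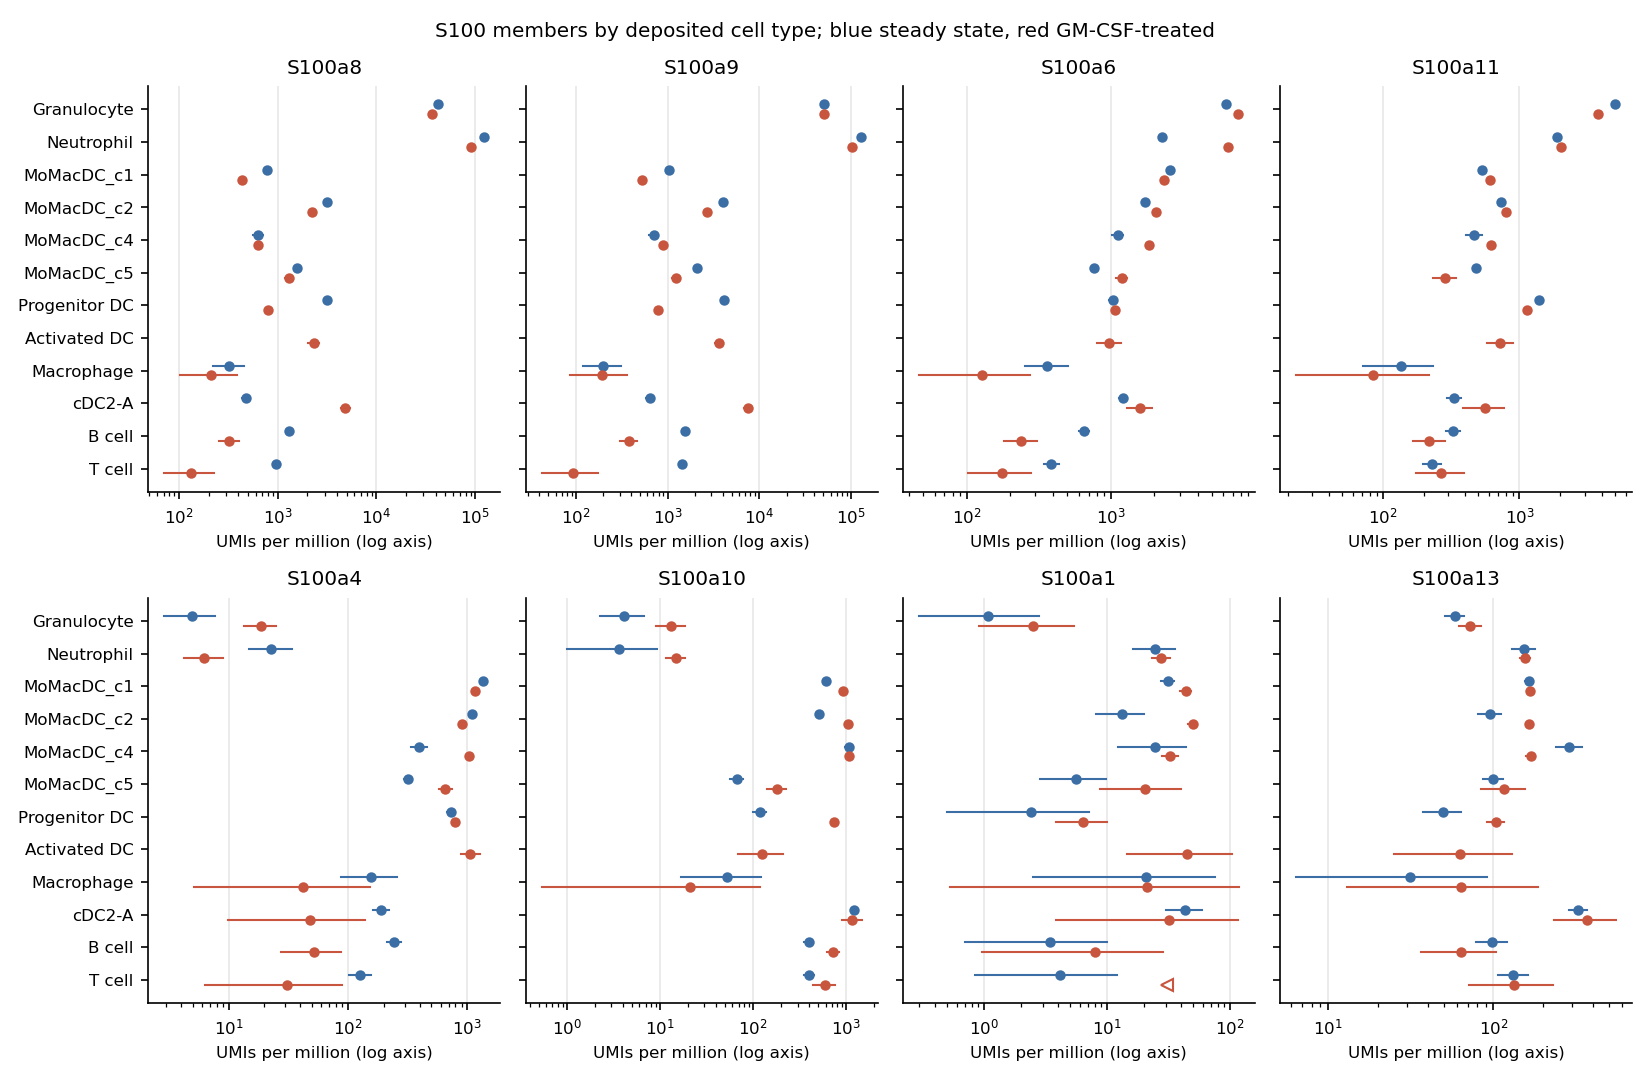
Level of each S100 member in the 12 deposited cell types, in CPM on a log axis, with exact Poisson 95% intervals (often narrower than the point), blue for steady state and red for GM-CSF-treated cells. Groups under 20 cells are left out and an open triangle marks a count of 0 at its limit of 3 counts. S100a8 and S100a9 stand highest in neutrophils, while S100a4 and S100a10 are lowest there and in granulocytes.

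Outside granulocytes and neutrophils, most cells of every type held 0 to 2 UMIs of S100a8 and S100a9 and a few cells held 50 or more. B cells, T cells and the cDC2-A cells with NK genes, which had come through the CD11b+ sort, are not known to make either gene. An S100a8 or S100a9 UMI was found in 53.6% of steady-state B cells (46.3 to 60.7%, exact binomial, median depth 2976 UMIs), 56.9% of T cells (3747 UMIs) and 49.5% of cDC2-A cells (3560 UMIs). After GM-CSF the shares were 50.6, 38.5 and 55%. In the bundle the shares ran from 54.7% (GM-CSF-treated MoMacDC_c5, 2493 UMIs) to 74.4% (steady-state MoMacDC_c4, 9618 UMIs).

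Drawing 1000 UMIs from each cell put depths on a level. The share with an S100a8 or S100a9 UMI was then 28.4% of B cells, 21.4% of T cells and 21.7% of cDC2-A cells in steady state. It was 19% in MoMacDC_c1, 26% in c2, 17.9% in c4, 22.9% in c5 and 35.8% in progenitor DCs. After GM-CSF it was 19.5, 15.4 and 30% in the 3 lymphoid types and 17.5, 19.4, 17.4, 26.6 and 15.7% in the bundle in the same order. Up to 47 cells of a bundle type and up to 6 of a lymphoid type were shallower and left out. Steady-state progenitor DCs exceeded every lymphoid type of their library, and their interval (28.1 to 44%) met that of B cells (22.1 to 35.4%). Before the draw 31 of the 152 steady-state progenitor DCs held 50 or more of these UMIs and 4 held 10 to 49. For the other bundle types these shares lay within or near the range of the 3 lymphoid types of their library. GM-CSF-treated MoMacDC_c5, at 26.6% (19.5 to 34.8%), stood above B and T cells, and only the cDC2-A cells, with 6 of 20, were higher. No share of a bundle type, progenitor DCs included, is read as expression.

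**Figure D2:**
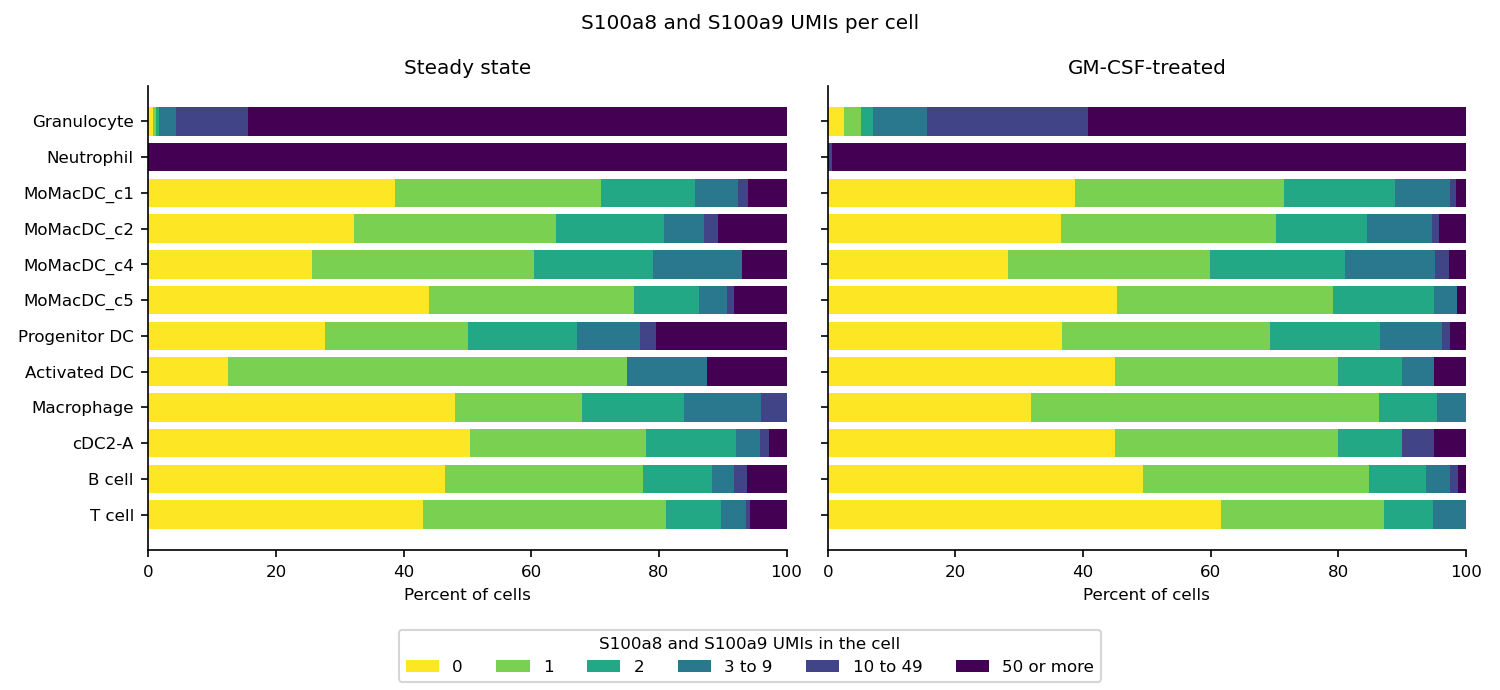
Percent of cells of each deposited type by the number of S100a8 and S100a9 UMIs in the cell, steady state on the left and GM-CSF-treated on the right. Granulocytes and neutrophils fill the classes of 10 or more, whereas in the other 10 types most cells hold 0, 1 or 2 and a small class holds 50 or more.

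Cells with fewer than 10 UMIs of both genes together formed a low layer in the 10 types other than granulocytes and neutrophils. The limits of 10 and 50 were chosen after the values were seen. In that layer the mean was 0.715 UMIs per cell (0.646 to 0.79) over 548 steady-state B, T and cDC2-A cells and 0.642 (0.513 to 0.793) over 134 GM-CSF-treated ones. In the bundle it was 0.915 over 1931 and 1.06 over 3783 cells, at median depths of 6798 and 6601 UMIs instead of 3442 and 2450. Over all 10 types and both libraries the mean of groups with at least 20 cells ran from 0.564 UMIs per cell in GM-CSF-treated T cells to 1.38 in steady-state MoMacDC_c4. In CPM the low layer of steady-state MoMacDC_c1 stood at 54.9 S100a8 and 70 S100a9, beside 65 and 95 in B cells and 90.1 and 93.2 in T cells. After GM-CSF MoMacDC_c1 stood at 73.1 and 83, B cells at 93.9 and 122, and T cells at 134 and 92.6. Per cell MoMacDC_c1 held 0.916 and 1.01 UMIs, above B cells at 0.711 and 0.688, in deeper cells. The layer is defined by its few UMIs, so it cannot show whether monocytes express the genes. The highest CPM in a low layer was that of macrophages, at 202 and 212 S100a8, in 24 and 22 shallow cells.

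Several other neutrophil genes were found in the same low lymphoid cells at fractions of their own level in granulocytes and neutrophils that were close to those of S100a8 and S100a9. S100a8 there reached 0.222% (0.19 to 0.258) of its mean over granulocytes and neutrophils in steady state and 0.161% (0.117 to 0.217) with GM-CSF, and S100a9 0.256% (0.223 to 0.292) and 0.135% (0.098 to 0.182). Retnlg, a secreted resistin-like protein of neutrophils, reached 0.224% (0.135 to 0.349) and 0.236% (0.108 to 0.449). Ngp and Camp, proteins of neutrophil granules, reached 0.172 and 0.148% and 0.109 and 0.122%. The granule proteins Ltf (lactoferrin) and Lcn2 (lipocalin that binds siderophores) reached 0.312 and 0.174% and 0.206 and 0.0954%. Of the 8 mature neutrophil genes, 3 in steady state and 7 after GM-CSF lay under 0.5%, and of the 8 granule genes 5 and 7. The exceptions in steady state with 10 or more UMIs were Csf3r at 2.21% (1.78 to 2.71), Slpi at 0.816% (0.558 to 1.15), Il1b at 0.922% (0.712 to 1.18), Hdc at 0.679% (0.371 to 1.14), Mxd1 at 6.6% (5.5 to 7.86) and Chil3 at 12.5% (11 to 14.1). Chil3 was also carried by the low layer of the bundle, at 13 UMIs per cell in steady state. Elane, Mpo and Prtn3, primary granule enzymes of early neutrophils, had at most 1 UMI each over these cells in either library, which is too few to place them. The cells were chosen by their S100a8 and S100a9 UMIs, which limits the fractions of these genes in advance and not directly those of the others. Free RNA in the droplets was not measured on its own, and its part in the low layer was not tested.

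**Figure D3:**
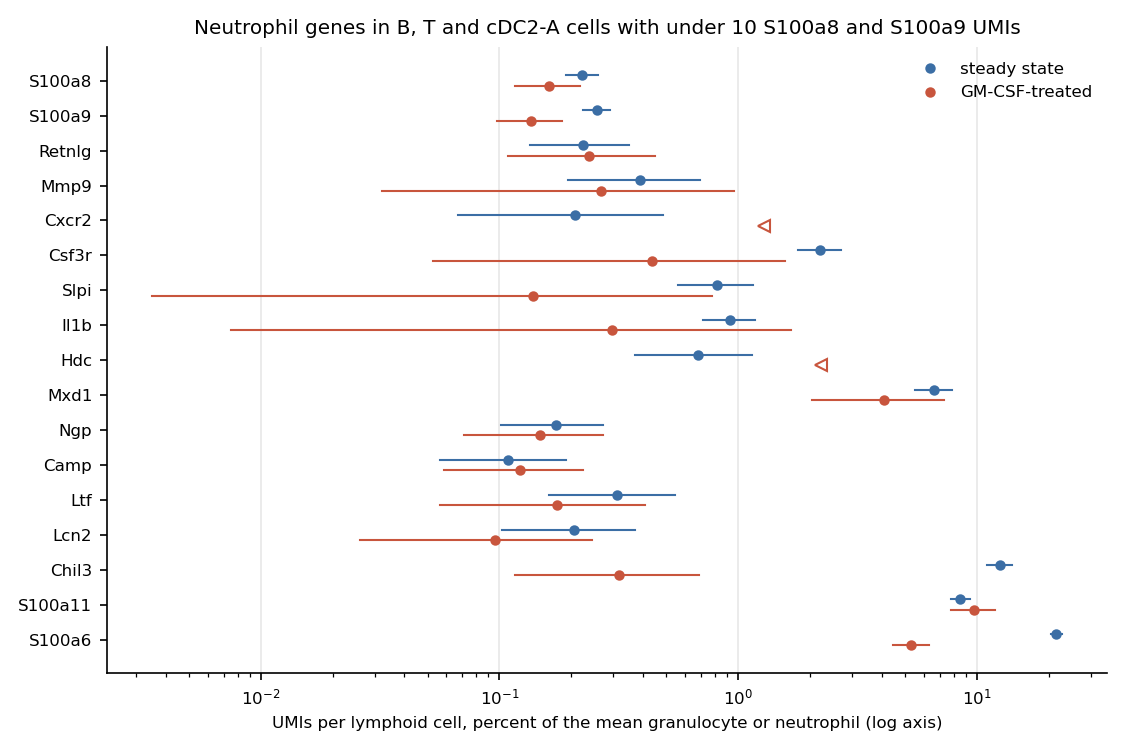
Mean UMIs of a gene per low-layer lymphoid cell as a percent of its mean over granulocytes and neutrophils, on a log axis with exact Poisson 95% intervals, blue for steady state and red for GM-CSF-treated cells. An open triangle marks a count of 0 at its limit of 3 counts. S100a8 and S100a9 lie between 0.135 and 0.256%, beside Retnlg, Ngp, Camp, Ltf and Lcn2, and S100a11 and S100a6 at 5.32 to 21.5%.

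S100a6 and S100a11, which granulocytes also carry at high levels, did not share that fraction. In the low lymphoid cells S100a6 reached 21.5% (20.4 to 22.6) of its granulocyte and neutrophil mean in steady state and 5.32% (4.46 to 6.3) with GM-CSF, and S100a11 8.52% (7.76 to 9.34) and 9.69% (7.81 to 11.9). The pools differed in make-up, with cDC2-A cells 205 of the 548 in steady state and 18 of the 134 with GM-CSF. The S100a6 mean they are set against was 12.3 and 18.8 UMIs per cell. The part of either in the S100a6 difference was not tested. These fractions are far above those of S100a8 and S100a9 in the same cells. The limit of under 10 UMIs caps S100a8 and S100a9 there and no other gene, so the gap is partly set by the choice of cells.

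A small class of cells outside granulocytes and neutrophils held 50 or more UMIs of S100a8 and S100a9 and nearly all of the sum. In the bundle it numbered 171 of 2135 steady-state cells (8.01%, 6.89 to 9.24%) and 110 of 3940 GM-CSF-treated cells (2.79%, 2.3 to 3.36%). It held 94.2 and 92.4% of the bundle's S100a8 and S100a9 UMIs. Among B, T and cDC2-A cells it numbered 28 of 584 (4.79%) and 2 of 138 (1.45%). Of the 10 types, none was without such cells in both libraries except macrophages. The class was largest in steady-state progenitor DCs, with 31 of 152 cells (20.4%, 14.3 to 27.7%).

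The same cells carried other neutrophil genes. In steady-state B cells of this class Csf3r (the G-CSF receptor), Il1b and Retnlg stood at 7.83, 14.8 and 14.6 UMIs per cell, against 0.272, 0.189 and 0.0444 in the low layer. Ngp and Camp stood there at 0 and 0.0833. A steady-state granulocyte held 7.92 Csf3r, 13.8 Il1b and 0.0441 Ngp UMIs on average, and a neutrophil 2.34, 1.06 and 271. In GM-CSF-treated MoMacDC_c2 the class held 74.3 Ngp and 105 Camp UMIs per cell and 2.15 Il1b UMIs. The means of GM-CSF-treated neutrophils were 151, 184 and 0.237. Steady-state progenitor DCs of this class held both, with 23.4 Il1b, 10.6 Csf3r, 16.5 Ngp and 22.5 Camp UMIs per cell. The class was deeper than the low layer in most types, with medians of 9448 against 6574 UMIs in steady-state progenitor DCs and 10272 against 6368 in GM-CSF-treated MoMacDC_c2. It was not in GM-CSF-treated progenitor DCs, at 6532 against 7169, or in the single GM-CSF-treated B cell of the class.

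Scrublet, which scores how closely a cell resembles a mixture of 2 others, called many of these cells doublets. It called 75 of the 171 steady-state and 97 of the 110 GM-CSF-treated bundle cells of the class, and 3 of 1931 and 47 of 3783 in the low layer. The call was uneven between types. It took 59 of 62 in GM-CSF-treated MoMacDC_c2 and 10 of 10 in steady-state T cells, but 0 of 31 in steady-state progenitor DCs. The S100a8 to S100a9 ratio of the class was 0.759 (0.745 to 0.774) in the steady-state bundle and 0.812 (0.8 to 0.825) after GM-CSF, which lies between granulocytes and neutrophils of the GM-CSF-treated library and below both in steady state. The part of mixed droplets in these levels was not tested.

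Levels of whole types rested on these cells. S100a8 in progenitor DCs stood at 3135 CPM (3037 to 3235) in steady state and 797 CPM (765 to 829.9) with GM-CSF, and at 77.1 and 59.9 without cells of 10 or more UMIs of both genes. S100a9 there stood at 4134 CPM (4021 to 4249) in steady state and 789 CPM (758 to 822) with GM-CSF, and at 88.5 and 77.7 without them. In B cells S100a8 stood at 1295 CPM (1221 to 1373) in steady state and 323 CPM (256 to 401) with GM-CSF, a ratio of 0.251 (0.196 to 0.312), and at 65 and 93.9 without them. In MoMacDC_c1 S100a8 stood at 784 CPM (767 to 802) in steady state and 430.1 CPM (416 to 444) with GM-CSF, a ratio of 0.548 (0.527 to 0.57), and at 54.9 and 73.1 without them. In MoMacDC_c2 it stood at 3139.8 CPM (3053 to 3228) in steady state and 2244 CPM (2214 to 2275) with GM-CSF, a ratio of 0.715 (0.693 to 0.737), and at 64.8 and 81.4 without them. In MoMacDC_c5 it stood at 1565 CPM (1513 to 1619) in steady state and 1307 CPM (1196 to 1426) with GM-CSF, a ratio of 0.836 (0.759 to 0.917), and at 75.6 and 158 without them. In B cells and MoMacDC_c1, c2 and c5 the order of the libraries was thus the opposite one without these cells. These S100a8 levels rest on 52 and 23 UMIs in B cells, 83 in steady-state MoMacDC_c2 and 60 in GM-CSF-treated MoMacDC_c5. In B cells the order may be counting error alone.

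S100a6 was the most abundant of the other members, and it differed most between the libraries in neutrophils. In neutrophils it stood at 2259 CPM (2171 to 2349.9) in steady state and 6501 CPM (6429.9 to 6572) with GM-CSF, a ratio of 2.88 (2.76 to 3). In granulocytes it stood at 6275 CPM (6194 to 6356) in steady state and 7604 CPM (7494 to 7714) with GM-CSF, a ratio of 1.21 (1.19 to 1.24). The share of neutrophils with an S100a6 UMI was 82.9% and 98.9%. In neutrophils the mature neutrophil list was at 10854 CPM in steady state and 14858 with GM-CSF, and the granule list at 111888 and 97044. Their part in the S100a6 difference of neutrophils was not tested. In the bundle S100a6 was highest in MoMacDC_c1, at 2583 CPM (2551 to 2616) in steady state and 2327 CPM (2295 to 2359.8) with GM-CSF. MoMacDC_c4 stood at 1115 CPM (1019 to 1217) in steady state and 1833 CPM (1798 to 1869) with GM-CSF, a ratio of 1.64 (1.5 to 1.8), with 855 in its steady-state cells without NK genes, which is past 2-fold. MoMacDC_c5, which carries the non-classical monocyte genes Nr4a1, Ace and Treml4, stood at 764 CPM (727 to 802) in steady state and 1187 CPM (1082 to 1300.3) with GM-CSF, a ratio of 1.56 (1.4 to 1.72). Those of MoMacDC_c5 without cells of 10 or more S100a8 and S100a9 UMIs were 523 and 1063, which is past 2-fold. In that type the non-classical monocyte list was at 2879 CPM in steady state and 1402 with GM-CSF and the classical list at 86.5 CPM in steady state and 297 with GM-CSF, and their part in its S100a6, S100a4 and S100a10 differences was not tested. B cells stood at 652 CPM (599 to 707) in steady state and 239 CPM (182 to 308) with GM-CSF, a ratio of 0.37 (0.276 to 0.479), and at 549.9 and 204 without cells of 10 or more S100a8 and S100a9 UMIs. In them the classical monocyte list was at 401 CPM in steady state and 83.7 with GM-CSF, the non-classical list at 573 CPM in steady state and 47.8 with GM-CSF and the mature neutrophil list at 1083 CPM in steady state and 143 with GM-CSF. Of the steady-state B cells 26 of 196 held 10 or more UMIs of the 6 monocyte genes and none of 79 GM-CSF-treated ones did. Nr4a1 had the most UMIs of the 6, with 290 in 78 of the steady-state B cells and 7 in 5 of the GM-CSF-treated ones. Ly6c2 had 206 UMIs in 18 and Ace 140 in 33 of the steady-state B cells. How much of these lists in B cells came from monocytes was not tested. Without the 26 cells steady-state S100a6 stood at 349.7, which is within 2-fold (log2 ratio -0.54). Progenitor DCs stood at 1033 CPM (977 to 1092) in steady state and 1073 CPM (1036 to 1110.4) with GM-CSF, and without such cells at 730.3 and 1001.

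S100a11 in CPM was highest in granulocytes and lower in neutrophils, the opposite order from S100a8 and S100a9. Per cell the order was the same as theirs, with 9.58 UMIs in granulocytes and 14 in the deeper neutrophils in steady state, and 5.08 and 11.1 with GM-CSF. Granulocytes stood at 5030.2 CPM (4958 to 5103) in steady state and 3771 CPM (3694 to 3849) with GM-CSF, a ratio of 0.75 (0.731 to 0.769), and neutrophils at 1869 CPM (1789 to 1952) in steady state and 2008 CPM (1969 to 2048) with GM-CSF. Progenitor DCs came next among types of at least 20 cells, at 1399 CPM (1334 to 1467) in steady state and 1144 CPM (1106 to 1183) with GM-CSF, above each MoMacDC type, whose levels lay between 284 and 803. In MoMacDC_c5 S100a11 was 484 CPM (455 to 515) in steady state and 284 CPM (234 to 342) with GM-CSF, but 292 and 245 without cells of 10 or more S100a8 and S100a9 UMIs. In no compared type did it differ 2-fold between the libraries.

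S100a10 stood higher in the GM-CSF-treated library in most compared types. S100a1 stood higher in each of them, but with 27 or fewer steady-state UMIs in all but MoMacDC_c1. S100a10 was nearly absent from steady-state granulocytes and neutrophils, with 15 UMIs over 1929 granulocytes and 4 over 146 neutrophils. Progenitor DCs stood at 117 CPM (99 to 138) in steady state and 733 CPM (703 to 765) with GM-CSF, a ratio of 6.23 (5.28 to 7.45), and the share of them with an S100a10 UMI was 45.4% and 95.7%, beside 0.726% and 1.73% of granulocytes. In progenitor DCs the cDC2 list was at 377 CPM in steady state and 163 with GM-CSF. The DC progenitor list (Flt3, Zbtb46, Kit) was at 397 and 270 there. Their part in the S100a10 and S100a13 differences of this type was not tested. MoMacDC_c5 stood at 67 CPM (56.5 to 78.8) in steady state and 179 CPM (139.6 to 226) with GM-CSF, a ratio of 2.68 (1.98 to 3.58). MoMacDC_c2 stood at 505 CPM (471 to 541) in steady state and 1046 CPM (1025 to 1067) with GM-CSF, a ratio of 2.07 (1.93 to 2.23). In that type the DC progenitor list was at 255 CPM in steady state and 71.4 with GM-CSF, and the cDC2 list at 72 and 3.01. The classical monocyte list was at 1043 and 432 there, and the non-classical list at 548 and 61.2. Their part in the S100a10 and S100a1 differences of MoMacDC_c2 was not tested. MoMacDC_c1 stood at 604 CPM (589 to 620.2) in steady state and 919 CPM (899 to 939) with GM-CSF, a ratio of 1.52 (1.47 to 1.57). MoMacDC_c4 did not share the difference, at 1073 CPM (979 to 1173) in steady state and 1075 CPM (1048 to 1102) with GM-CSF when all its cells were taken (log2 0.31 under size factors), but its steady-state cells without NK genes stood at 654 (log2 ratio 0.71). The cDC2-A cells, the highest of all types, stood at 1204 CPM (1132 to 1280) in steady state and 1164 CPM (912 to 1463) with GM-CSF, and only 20 GM-CSF-treated cells bear that label. B cells stood at 397 CPM (357 to 441) in steady state and 729 CPM (627 to 843) with GM-CSF, a ratio of 1.84 (1.53 to 2.2). In neutrophils the ratio of 3.61 (1.51 to 15.2) rested on 4 steady-state UMIs, and cells thinned to 1000 UMIs gave a log2 ratio of 0.07. Leaving out cells of 10 or more S100a8 and S100a9 UMIs left progenitor DCs at 125 and 744.

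S100a4 was also nearly absent from granulocytes and neutrophils and high in the bundle. Granulocytes stood at 4.9 CPM (2.9 to 7.74) in steady state and 18.6 CPM (13.6 to 25) with GM-CSF. Neutrophils stood at 22.9 CPM (14.8 to 33.8) in steady state and 6.28 CPM (4.27 to 8.91) with GM-CSF. All 25 steady-state UMIs lay in 3 of 146 cells, and the difference was not counted without called doublets (too few UMIs) or as a mean over cells (log2 -0.58). MoMacDC_c1 was highest among types of 20 or more cells in both libraries, at 1375 CPM (1351 to 1399) in steady state and 1161 CPM (1139 to 1184) with GM-CSF, a ratio of 0.845 (0.823 to 0.867), and MoMacDC_c2 stood at 1095 CPM (1044 to 1147) in steady state and 900.3 CPM (881 to 919.8) with GM-CSF. The difference ran the other way in MoMacDC_c4, at 396 CPM (340.1 to 459) in steady state and 1034 CPM (1008 to 1061) with GM-CSF, a ratio of 2.6 (2.25 to 3.05), where the 16 steady-state cells without NK genes stood at 546 and the difference was short of 2-fold (log2 0.91). It also did in MoMacDC_c5, at 319.9 CPM (296 to 345) in steady state and 658 CPM (579.6 to 743) with GM-CSF, a ratio of 2.06 (1.77 to 2.38), which fell short of 2-fold under size factors and without cells of 10 or more S100a8 and S100a9 UMIs. Progenitor DCs stood at 727 CPM (681 to 777) in steady state and 792 CPM (760.1 to 824) with GM-CSF. In B cells S100a4 stood at 245 CPM (214 to 280.5) in steady state and 51.8 CPM (27.6 to 88.6) with GM-CSF. It was found in 3 of 79 GM-CSF-treated B cells, with 13 UMIs, and in 27 of 196 steady-state B cells, 3 of which held 100 of the 215 UMIs. Steady-state B cells under 10 UMIs of the monocyte genes held 10 S100a4 UMIs (16.5 CPM), and the direction then turned (log2 ratio 1.63), on fewer UMIs than the minimum of 50. Without cells of 10 or more S100a8 and S100a9 UMIs S100a4 in B cells stood at 266 and 53.1.

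**Figure D4:**
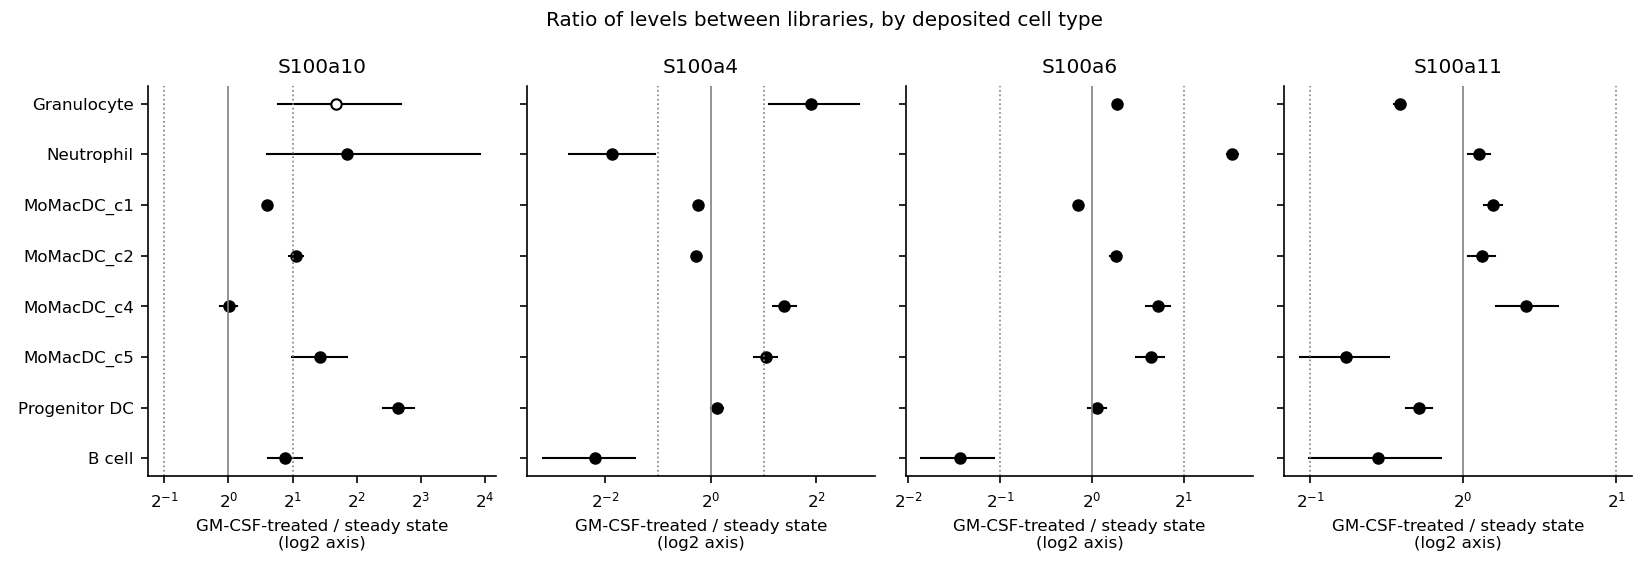
Ratio of the GM-CSF-treated to the steady-state level in 8 deposited cell types, on a log2 axis with exact 95% intervals of counting error, for S100a10, S100a4, S100a6 and S100a11. The solid line is a ratio of 1, dotted lines are 2-fold, and the open point had under 50 UMIs over both libraries. S100a10 lies right of 1 in all types but MoMacDC_c4, where size factors, or leaving out steady-state cells with NK genes, put it right of 1 too. S100a4 lies on either side, and in B cells the side turns without cells that carry monocyte genes.

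S100a13 and S100a1, which share the interval between their starts, were scarce. S100a13 was highest in cDC2-A cells, at 325 CPM (288 to 365) in steady state and 367 CPM (232 to 550.2) with GM-CSF. It stood near 163 in MoMacDC_c1 (167 after GM-CSF) and at 152 CPM (129.9 to 177) in steady state and 155 CPM (144 to 166) with GM-CSF in neutrophils, with no difference beyond counting error in either. Progenitor DCs stood at 49.4 CPM (37.8 to 63.4) in steady state and 103 CPM (91.8 to 115) with GM-CSF, a ratio of 2.07 (1.58 to 2.79), and MoMacDC_c4 at 287 CPM (239.7 to 341) in steady state and 168 CPM (158 to 179) with GM-CSF, a ratio of 0.584 (0.487 to 0.71). The steady-state MoMacDC_c4 cells without NK genes stood at 97.4, which turns the direction (log2 ratio 0.75). S100a1 never exceeded 49.6 CPM among these groups of 20 or more cells. It stood in MoMacDC_c2 at 13.2 CPM (8.14 to 20.1) in steady state and 49.6 CPM (45.2 to 54.3) with GM-CSF, a ratio of 3.69 (2.44 to 6.15) that rests on 21 steady-state UMIs. In MoMacDC_c1 it stood at 31.2 CPM (27.7 to 35) in steady state and 43.9 CPM (39.6 to 48.5) with GM-CSF, a ratio of 1.41 (1.2 to 1.64). In GM-CSF-treated T cells 0 UMIs over 39 cells allow up to 30.9 CPM (3 counts). Across 23 groups of cell type and library with at least 20 cells the Pearson correlation of log2 CPM plus 10 was 0.47 for this pair. It was 0.99 for S100a8 and S100a9. S100a1 had lower values with every other member, the next being 0.37 with S100a4, while S100a13 had 0.55 with S100a10. At the low levels of S100a1, counting error and the added 10 limit the correlation, so it cannot show how closely the pair moved together. These values describe groups that share libraries and depth.

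Other genes of the family were close to absent. S100a2, S100a3, S100a5, S100a7a, S100a14, S100b and S100g had 7, 20, 14, 18, 4, 1 and 4 UMIs over both libraries, and S100a16 and S100z had 0. S100a3 and S100a5, the neighbours of S100a4, thus held few UMIs where S100a4 held 44403 and S100a6 162451.

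Counts of members past 2-fold, in genes with at least 50 UMIs over both sums, were read against the share of all genes past it. Between the libraries the count was 1 of 6 tested members (1 higher, 0 lower) beside 10.5% of 6257 genes, with a median log2 ratio of 0.14 over the members and 0.11 over all genes tested in granulocytes. It was 3 of 8 tested members (2 higher, 1 lower) beside 6.1% of 6489 genes, with a median log2 ratio of 0.06 over the members and -0.05 over all genes tested in neutrophils. In MoMacDC_c1 it was 0 of 8 tested members (0 higher, 0 lower) beside 12.7% of 9556 genes, with a median log2 ratio of -0.06 over the members and -0.07 over all genes tested. MoMacDC_c2 had 2 of 8 tested members (2 higher, 0 lower) beside 12.8% of 8970 genes, with a median log2 ratio of 0.19 over the members and -0.03 over all genes tested. MoMacDC_c4, with 43 steady-state cells, had 1 of 8 tested members (1 higher, 0 lower) beside 24.7% of 8106 genes, with a median log2 ratio of 0.34 over the members and -0.16 over all genes tested. Without cells of 10 or more NK list UMIs it had 4 members (S100a8, S100a9, S100a6 and S100a1) beside 24.2% of 7935 genes. The 16 steady-state cells left held only 20 S100a8, 6 S100a9 and 2 S100a1 UMIs. With GM-CSF 87.7% of the S100a8 and S100a9 UMIs of this type lay in 16 cells of 50 or more, 11 of them called doublets. MoMacDC_c5 had 2 of 7 tested members (2 higher, 0 lower) beside 9.16% of 5807 genes, with a median log2 ratio of 0.22 over the members and -0.06 over all genes tested. The largest counts were those of progenitor DCs and B cells. Progenitor DCs had 4 of 7 tested members (2 higher, 2 lower) beside 13.9% of 7286 genes, with a median log2 ratio of 0.05 over the members and -0.08 over all genes tested. B cells had 4 of 7 tested members (0 higher, 4 lower) beside 15.2% of 3474 genes, with a median log2 ratio of -1.44 over the members and -0.26 over all genes tested. S100a8 and S100a9 were among the lower ones in both types. Without cells of 10 or more of their UMIs the count was 2 in each, beside 13.2% of genes in progenitor DCs and 14.9% in B cells. The remaining members were S100a10 and S100a13 in progenitor DCs and S100a6 and S100a4 in B cells, and these were the ones within 2-fold or with under 50 UMIs when B cells with 10 or more monocyte gene UMIs were left out instead. Size factors put the typical gene at a log2 ratio of -0.31 in MoMacDC_c4 and -0.18 in progenitor DCs, against which the members' ratios there stand higher by that much. Without called doublets S100a8 and S100a9 were also past 2-fold, and lower with GM-CSF in MoMacDC_c1 (-1.36 and -1.60 on the log2 scale), c2 (-3.26 and -3.59) and c4 (-1.87 and -1.86). The calls took unequal shares of the cells of 50 or more UMIs, with 50 of 78 in steady state and 16 of 20 with GM-CSF in MoMacDC_c1, 5 of 19 and 59 of 62 in c2, and 0 of 3 and 11 of 16 in c4. Without all cells of 10 or more UMIs the log2 ratios of S100a8 were 0.41 in c1, 0.32 in c2 and -0.25 in c4.

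The partners and receptors of S100 proteins (Anxa1, Anxa2, Anxa11, Ahnak, Cacybp, Myh9, Ager, Tlr4, Bsg) were mostly within 2-fold. Past it were 1 of 9 tested in granulocytes, 1 of 8 in MoMacDC_c4 and 1 of 7 in progenitor DCs, and none of 7 or 8 tested in neutrophils, MoMacDC_c1, c2, c5 and B cells. Ahnak, a giant protein held at the membrane by the complex of S100a10 and annexin A2, was the one in granulocytes, at 22.6 CPM in steady state and 365 after GM-CSF, a ratio of 16.1 (12.9 to 20.5). It was also the one in progenitor DCs, at 46.1 and 235, a ratio of 5.04 (3.88 to 6.78). Anxa2 itself stood at 256 and 316 in progenitor DCs, a ratio of 1.23 (1.09 to 1.41). Tlr4 in MoMacDC_c4 rested on 1 steady-state UMI.

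Within the bundle the 17 deposited clusters spread S100a4, S100a6, S100a10 and S100a11 over different ranges. Among the 28 combinations of cluster and library with at least 20 cells, S100a4 was highest in steady-state cluster 5, at 1616 CPM (1573 to 1659), and lowest in steady-state cluster 4, at 351 CPM (325 to 379). After GM-CSF these clusters stood at 1398 CPM (1326 to 1473) and 732 CPM (650.3 to 822). S100a6 in the same clusters stood at 3052 and 531 in steady state and 2607 and 1117 after GM-CSF. S100a10 was above its steady-state level in the GM-CSF-treated library in each of clusters 1 to 7, 9, 10, 11 and 12, and not in cluster 8, at 1087 CPM (977 to 1206) and 1034 CPM (1002 to 1068). In steady state 22 of 28 cells of cluster 8 and 5 of 31 of cluster 7 held 10 or more UMIs of the NK list, and none did with GM-CSF. The other 6 steady-state cells of cluster 8 stood at 851 S100a10 CPM. Its difference was largest in clusters 12, at 142 CPM (99 to 198) and 698 CPM (656 to 741), and 9, at 203 CPM (176 to 233) and 791 CPM (746 to 837). S100a11 was high in clusters 9 and 12, at 1110.5 and 1096 in steady state and 1257 and 999 after GM-CSF. In clusters 0 to 8, 10 and 13 it lay between 253 and 832.

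**Figure D5:**
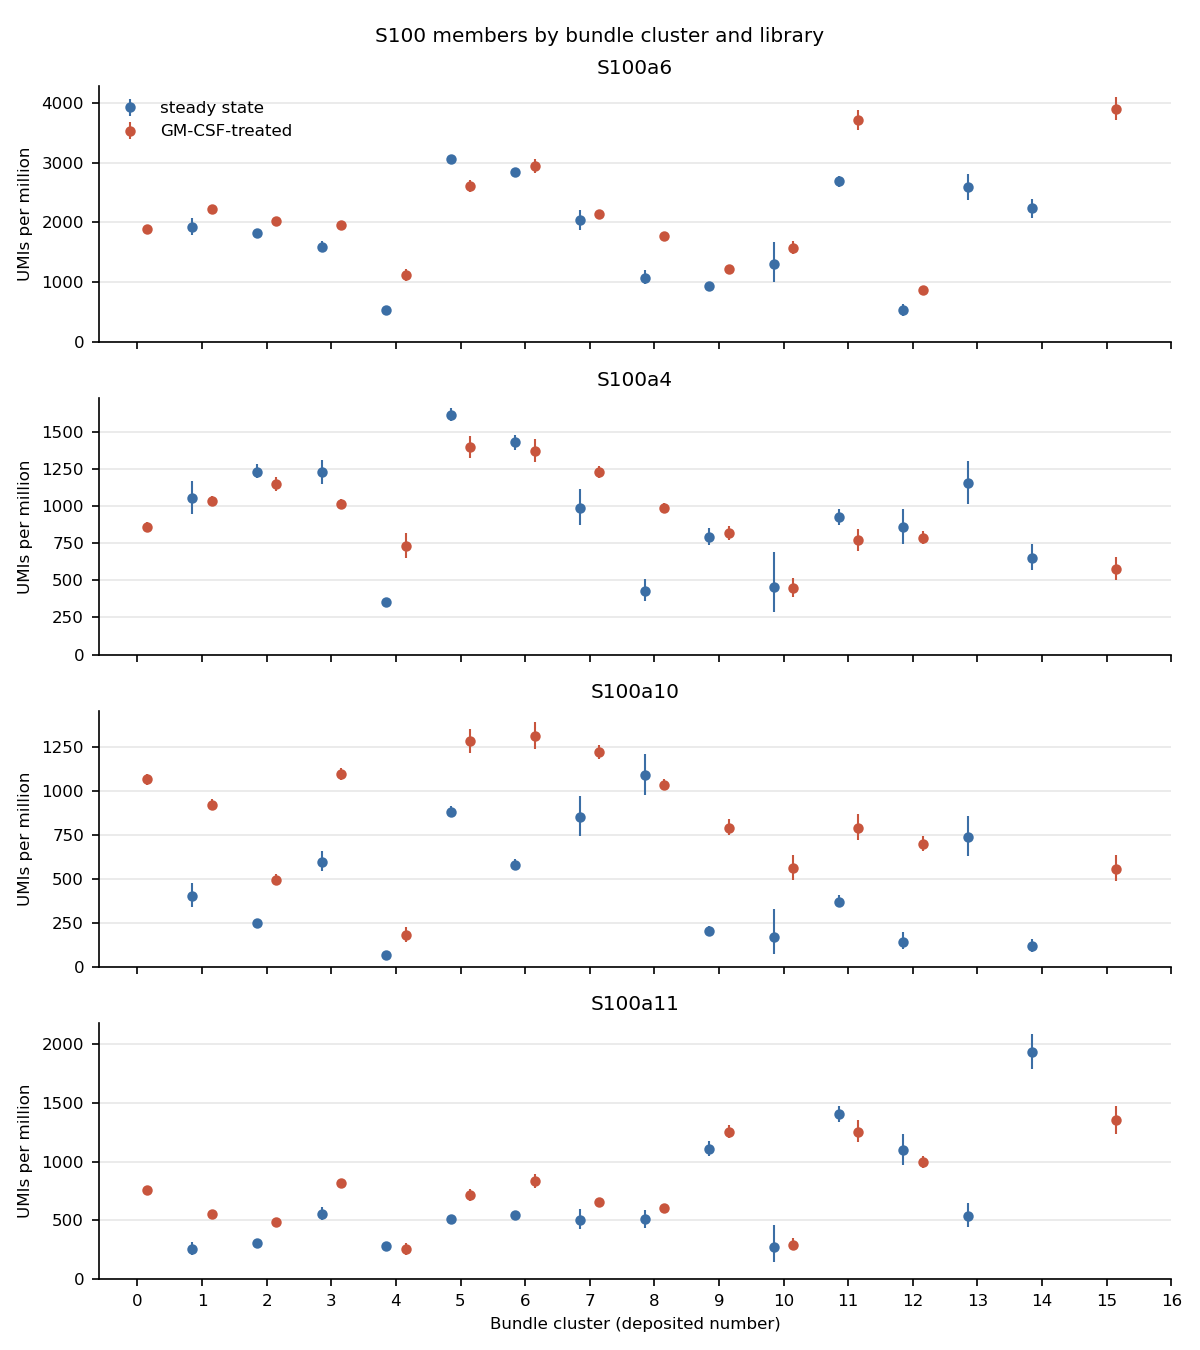
Levels of S100a6, S100a4, S100a10 and S100a11 in CPM by deposited cluster of the bundle, with exact Poisson 95% intervals, blue for steady state and red for GM-CSF-treated cells. Groups under 20 cells are left out, and S100a10 lies higher in red than in blue in every cluster drawn in both colours except 8, most of whose steady-state cells carried NK genes.

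S100a8 and S100a9 gathered in 3 of the clusters. Cluster 15 stood at 47795 S100a8 CPM in its 33 GM-CSF-treated cells, all of which held 50 or more UMIs of both genes, and 32 of them were called doublets. Cluster 11 stood at 7576 and 11977, with 122 of 157 and 53 of 77 cells at 50 or more and 71 and 50 of these called doublets. Cluster 14 stood at 7651 in its 35 steady-state cells, with 30 at 50 or more and 0 called. In cluster 5, where S100a4 was highest, S100a8 was 49.3 and 57.5 and no cell held 10 or more. In cluster 6 it was 56.9 in steady state and 1444 after GM-CSF, where 5 of 108 cells held 90.8% of the S100a8 and S100a9 UMIs.

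The study divided CD115hi cells by their tags. P-I cells were Ly6C+, P-II cells lacked both Ly6C and MHC II, P-III cells bore MHC II without CD301b, and P-IV cells bore MHC II together with CD301b. In P-I cells the count past 2-fold between the libraries was 0 of 8 tested members (0 higher, 0 lower) beside 12.1% of 5774 genes, with a median log2 ratio of 0.03 over the members and -0.10 over all genes tested. S100a10 stood at 518 CPM (476 to 562) in steady state and 835 CPM (787 to 884) with GM-CSF, a ratio of 1.61 (1.46 to 1.78), and S100a4 at 1619 CPM (1544 to 1696) in steady state and 1225 CPM (1167 to 1284) with GM-CSF, a ratio of 0.756 (0.707 to 0.809). S100a6 stood at 2649 CPM (2553 to 2747) in steady state and 2392 CPM (2312 to 2475) with GM-CSF. From P-I to P-III in the GM-CSF-treated library the count was 2 of 8 tested members (0 higher, 2 lower) beside 3.82% of 5233 genes, with a median log2 ratio of -0.22 over the members and 0.02 over all genes tested. The lower members were S100a8, at 1242 CPM (1184 to 1302) in P-I and 85.2 CPM (65.5 to 109) in P-III, and S100a9, at 1705 CPM (1637 to 1775) and 91.9 CPM (71.4 to 117). The P-I level was set by 12 of 187 cells that held 92.9% of the UMIs, 11 of them called doublets. Without cells of 10 or more UMIs P-I stood at 91.8 and P-III at 85.2 S100a8 CPM, and no member was past 2-fold, nor was any without called doublets. From P-III to P-IV the count was 0 of 8 tested members (0 higher, 0 lower) beside 2.93% of 6216 genes, with a median log2 ratio of -0.01 over the members and -0.01 over all genes tested.

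Across the GM-CSF-treated subsets S100a4 stood at 1225 CPM (1167 to 1284) in P-I, 888 CPM (822 to 959) in P-III and 901 CPM (862 to 941) in P-IV. S100a6 stood at 2392, 1938 and 1884. S100a10 stood at 835 CPM (787 to 884), 980.3 CPM (910.2 to 1054) and 1064 CPM (1022 to 1108). S100a11 stood at 571 CPM (532 to 613), 519 CPM (469 to 574) and 693 CPM (659 to 728). Thus S100a4 and S100a6 were lower in the MHC II+ subsets than in P-I, and S100a10 and, in P-IV, S100a11 were higher, all by less than 2-fold. P-II held 8 cells in each library, and steady-state P-III and P-IV held 12 and 7, too few to give levels.

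Tag counts on the same bundle cells separated S100a4 and S100a6 along Ly6C, a surface protein of classical monocytes. From the lowest to the highest quartile of the Ly6C tag in steady state S100a6 stood at 645, 1640, 2615 and 2773, and S100a4 at 491, 877, 1409 and 1419. After GM-CSF S100a6 stood at 1658, 1722, 1902 and 2459, and S100a4 at 894, 913, 1008 and 1128. Median depth moved with this tag, from 3861 to 7856 UMIs in steady state. Along CD11c, an integrin of DCs, the order was reversed, and steady-state S100a4 stood at 1445, 1396, 961 and 631. S100a10 stood in steady state at 669 in the lowest and 211 in the highest CD11c quartile, and at 1015 and 869 after GM-CSF. For MHC II it stood at 696 and 301 in steady state and 909 and 999 after GM-CSF. Along CD301b in steady state S100a6 stood at 1166 in the lowest and 2612 in the highest quartile, where the tag was at most 9 counts in 3 of 4 quartiles. Many cells tie at such low tag counts and were split in file order.

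By deposited cell cycle phase S100a4 and S100a10 in the bundle differed by less than 1.5-fold. S100a4 in G1, S and G2/M stood at 1106, 1219.5 and 901 in steady state and 981, 1022 and 1018 after GM-CSF. S100a10 stood at 475, 493 and 647 and at 942, 944 and 1029.6. S100a10 was therefore above its steady-state level within each phase.

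The order of the 11 cell types with at least 20 cells in both libraries was largely kept between them. Of 55 pairs of types, 52 stood in the same order in both libraries for S100a6, 52 for S100a4, 51 for S100a11, 50 for S100a10, 48 for S100a13, 44 for S100a1, 41 for S100a8 and 39 for S100a9. Steady-state S100a10 ran from cDC2-A through MoMacDC_c4, c1, c2, T cells, B cells, progenitor DCs, MoMacDC_c5 and macrophages to granulocytes and neutrophils. Of its 10 neighbouring pairs 4 had overlapping intervals, as had 10 for S100a1 and 4 for S100a4. The highest level was 329 times the lowest for S100a10 in steady state, 281 for S100a4, 37.3 for S100a11, 17.3 for S100a6 and 10.4 for S100a13.

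The genes whose levels were most like each member over the 23 groups of at least 20 cells, by Pearson r of log2 CPM plus 10 among 9750 other genes with at least 200 UMIs, were as follows. For S100a8 they were S100a9 (0.99), Wfdc21 (0.98), Mmp9 (0.96), and for S100a9 S100a8 (0.99), Wfdc21 (0.97), Mmp9 (0.96), so that each named the other first. For S100a6 they were Anxa1 (0.90), Card19 (0.88), Sptlc2 (0.87), the first being the annexin that S100a11 binds. For S100a11 they were Prkar2b (0.88), Tarm1 (0.88), Tspan2 (0.86), and for S100a4 Hspa8 (0.91), Pinx1 (0.90), Srsf9 (0.90). For S100a10 they were Xrn2 (0.92), Tmem173 (0.90), Eif3d (0.90), for S100a13 Esyt1 (0.85), Ptpn7 (0.82), Atp10a (0.82) and for S100a1 Gpr160 (0.78), Txndc17 (0.75), Slc25a24 (0.73). Among members, S100a11 with S100a6 (0.86) and with S100a9 (0.84) had high values, and S100a10 with S100a8 the lowest (-0.64). These groups share libraries, cell types and depth, and the named genes changed with the setting for most members.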

How the data were processed

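RNA of CD11b+ splenocytes was measured in 1 steady-state and 1 GM-CSF-treated library. The deposited RNA and tag tables hold raw counts (UMIs), which the authors made with Cell Ranger 3.0.2 on mm10 and CITE-seq-Count. Their limits were 200 and 5000 genes a cell and a mitochondrial share, deposited in percent, of 15% at most. They labelled clusters with Seurat 3.6.0. The methods name no doublet removal.

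Here counts were summed by deposited cell type, cluster, CD115hi subset, phase or tag quartile. Ratios add 0.5 to each sum, with Clopper-Pearson 95% limits turned into ratio limits. These limits were checked against simulated counts of known ratio. Thinning drew 1000 UMIs per cell (seed 20). Scrublet, run on each library through scanpy 1.11.5, gave the doublets (141 and 186 cells). Named were the 8 members, other S100 genes, listed partners, markers, and the 3 genes most like each member. Alternatives were size factors, totals without S100a8 and S100a9, thinning, no minimum of UMIs, no doublets, a 10% mitochondrial limit, means over cells and, added later, no cells of 10 or more UMIs of S100a8 and S100a9, of NK genes (MoMacDC_c4) or of monocyte genes (B cells). Members and lists were chosen with earlier results of these data known. Python 3.11.15, scipy 1.17.1, numpy 2.4.6 and pandas 2.3.3 were used. Amino acid sequences were not used here.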

Additional observations from a re-analysis of the deposited data

Results flagged for a closer look

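For these members the GM-CSF-treated to steady-state ratio lay on opposite sides of 1 in different cell types. There is 1 library per condition, so the difference between the types was not tested, and intervals cover counting error only. S100a4 had a GM-CSF-treated to steady-state ratio of 3.75 in granulocytes and 0.219 in B cells, 17.1 times apart, and its ratio lay above 1 in 4 and below 1 in 4 of 8 types. The granulocyte difference was not counted in thinned cells. In B cells it rested on 13 GM-CSF-treated UMIs in 3 cells, and turned (log2 ratio 1.63) without steady-state cells that carried 10 or more UMIs of monocyte genes. S100a6 had 2.88 in neutrophils and 0.37 in B cells, 7.79 times apart, and without those B cells the latter was within 2-fold (log2 -0.54). S100a9 had 1.26 in MoMacDC_c4 and 0.191 in progenitor DCs, 6.58 times apart, and these levels rest on few cells with 50 or more UMIs. In MoMacDC_c4 they also rest on steady-state cells that carried NK genes. The log2 ratio was 4.65 without them, on only 6 S100a9 UMIs in the 16 steady-state cells left. S100a13 had 2.07 in progenitor DCs and 0.584 in MoMacDC_c4, 3.55 times apart, and MoMacDC_c4 turned (log2 0.75) without its steady-state cells that carried NK genes.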

How the results depend on the processing

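Of 665 recomputed log2 ratios of single members, 509 stayed inside their main interval, 153 left it, and 3 that were past 2-fold changed sign. The latter, all in B cells, were S100a4 (1.63) without cells of 10 or more monocyte marker UMIs, and S100a8 (0.55) and S100a9 (0.38) without cells of 10 or more UMIs of both genes. The S100a8 value rests on 52 steady-state and 23 GM-CSF-treated UMIs, and that of S100a9 on 76 and 30. Leaving out cells by S100a8 and S100a9, NK or monocyte marker UMIs was chosen after the data were seen. Of 88 recomputed counts of members past 2-fold, 17 moved by more than 1.5 times. Without called doublets the count was 2 instead of 0 in MoMacDC_c1, 4 instead of 2 in c2, 3 instead of 1 in c4, 2 instead of 0 in P-I and 0 instead of 2 from P-I to P-III. The shares of all genes past 2-fold beside them were 12.6, 13.3, 24.4, 11.6 and 4.2%. The members that moved were S100a8 and S100a9 throughout, in P-I to -1.85 and -2.22. Without cells of 10 or more of their UMIs the count was 2 in progenitor DCs, 2 in B cells and 0 from P-I to P-III, beside 13.2, 14.9 and 3.99% of all genes. Without cells of 10 or more NK marker UMIs it was 4 in MoMacDC_c4 (24.2% of all genes), and without cells of 10 or more monocyte marker UMIs 2 in B cells (12.5%). In MoMacDC_c4 these included S100a8, S100a9 and S100a1, which then rested on 20, 6 and 2 steady-state UMIs. Thinning to 1000 UMIs gave 0 in granulocytes, 1 in neutrophils, where fewer genes passed the minimum of UMIs, and 1 in MoMacDC_c1 (S100a9). The shares of all genes there were 9.89, 8.49 and 11.6%. Without a minimum of UMIs granulocytes had 3, beside 27.6% of 12782 genes. Size factors gave 2 in MoMacDC_c4 (24.9% of all genes) and 1 in c5 (9.88%), and the mean over cells gave 1 in MoMacDC_c1 (12.8%). Size factors moved all log2 ratios of a comparison together, the normalising shift being -0.31 in MoMacDC_c4. Other causes were not tested.

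Thinned, the share of cells with an S100a8 or S100a9 UMI was 28.4% in steady-state and 19.5% in GM-CSF-treated B cells, 21.4 and 15.4% in T cells, and 21.7 and 30% in cDC2-A cells. With at least 2 UMIs in unthinned cells it was 22.4 and 15.2%, 19 and 12.8%, and 22 and 20%. The S100a8 to S100a9 ratio was 0.708 in thinned GM-CSF-treated granulocytes, 0.898 in thinned neutrophils and 0.901 there as a mean over cells. Of 24 repeats of the likeness search, 12 kept at least 2 of the 3 named genes. No paired analysis was possible because each condition has 1 library. Scrublet calls depend on the threshold it sets (0.227 and 0.228), and groups under 20 cells or 50 UMIs limit what can be compared.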

Other observations

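S100a8 and S100a9 differed by cell cycle phase in the bundle. S100a8 stood at 1548, 257 and 1615 CPM in G1, S and G2/M in steady state and at 1576, 467 and 588 after GM-CSF. Cells of 50 or more S100a8 and S100a9 UMIs hold most of these sums, and their part in the difference was not tested. In steady-state G2/M the highest cell alone held 80.8% of the S100a8 UMIs and 81.5% of the S100a9 UMIs, so these levels rest mostly on that cell. For S100a8 the highest cell held 8.6% in G1 and 19.3% in S in steady state. After GM-CSF it held 4.49, 32.2 and 15.9% in G1, S and G2/M.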
